A study of Homo sapiens with 9 samples.

Results

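PARP1 knockdown was compared with control in 786-O cells, a human line from a clear cell renal carcinoma, across all genes expressed in them. The comparison takes 6 of the 9 messenger RNA libraries of the study: 3 labelled Si-Control and 3 labelled Si-PARP1. All 6 come from the same line, carry a wild type genotype label and the same batch label, and differ by the labelled treatment. The other 3 libraries, in which TRIM28 was silenced, entered the fit of the spread and a direct comparison at the end. The labels call the control reagent siRNA in places and shRNA in others, and the control cells negative control or parental, so neither the kind of reagent nor the handling of the control cells is certain. No time after treatment and no number of reagents is given, and no label states that replicates were grown as separate cultures, so p-values measure only how far these libraries spread, which may be technical. Of 61806 genes in the table, 13562 passed a filter on low counts and were tested.

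PARP1 is the main nuclear poly(ADP-ribose) polymerase. It binds DNA breaks, uses NAD+ to build chains of ADP-ribose on itself, histones and other chromatin proteins, and so brings repair factors to the break and loosens chromatin. HPF1 directs the enzyme to serine residues, PARP2 shares much of its role, and the hydrolases PARG and ADPRS (also known as ARH3) take the chains and the last ADP-ribose away. Outside repair, PARP1 is known as a regulator of chromatin structure and transcription, including that of inflammatory genes.

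Total counts were 18042542, 18268492 and 20224374 in control and 15629533, 13697520 and 11963110 in PARP1 knockdown. The markers set for renal tubule and clear cell carcinoma had a summed level of 1478 to 1510 FPKM in control and 948 to 1412 FPKM in PARP1 knockdown, with 11 of 12 tested. PAX8, the renal lineage factor, was between 33.1 and 55.1 FPKM in the 6 libraries. The summed levels of the fibroblast, endothelial and leukocyte markers were at most 1.01 FPKM in any library, and PTPRC, CD3E, PDGFRA and NPHS1 were listed at 0 in all 6. Of the podocyte markers only PODXL, which encodes podocalyxin, was tested, and it fell from 6.28, 6.59 and 4.03 FPKM to 2.41, 1.44 and 1.21 FPKM. All 6 libraries are labelled as the same line, and no label mentions podocytes or another cell type. In bulk RNA, fewer cells that express a gene and less of its RNA per cell cannot be told apart.

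PARP1 fell to 3.11% of its control level, and RNASEH1, TMX1, METTL16, LPIN2, COPB2, DIAPH1 and HSP90AB1 were among the other strongest falls, while ISG15, IFI27, OASL, IFNB1, LTB and CASTOR1 were among the strongest rises among genes whose mean FPKM reached 1. That mean was taken over the 6 libraries, so a gene could pass through the group in which it was higher. LTB and CASTOR1 were below 1 FPKM in control and passed only through the knockdown libraries. Genes are said to rise or fall where edgeR's quasi-likelihood test gave an adjusted p below 0.05 (Benjamini-Hochberg, over all tested genes). By that rule 8042 genes changed, 59.3% of those tested: 3681 were higher (27.1%) and 4361 lower (32.2%). At least 2-fold changes were more often falls, with 2547 genes (18.8%) against 996 rises (7.34%). The 3 libraries of each group did not overlap for 8606 genes (63.5%). With library totals in place of TMM scaling, the median of all genes moved by -0.33 on the log2 scale and the split became 2024 higher and 5803 lower. With limma on log2(FPKM + 1) it was 2140 and 4607.

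PARP1 (ENSG00000143799, chromosome 1, 226360210 to 226408154, minus strand, GRCh38) stood at 178, 200 and 153 CPM in the control libraries and at 6.82, 4.48 and 5.24 CPM in the knockdown libraries. All 3 knockdown libraries were far below all 3 controls, so the target behaved as labelled in each of them. Its log2 fold change was -4.99 ± 0.18 (SE, n = 3 per group). TRIM28, the other gene targeted in the study, stood at 316, 341 and 381 CPM in control and 440, 421 and 428 CPM in PARP1 knockdown (log2 fold change 0.31, edgeR adjusted p = 0.0433). Its sign depended on the scaling and on GC content: it was 0.29 with the length trend of each library removed, -0.27 with the GC trend removed as well, and -0.01 with library totals.

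RNASEH1, the nuclease that digests the RNA strand of RNA-DNA hybrids, stood at 33.9, 26.0 and 22.9 CPM in control and at 1.92, 1.10 and 1.29 CPM in PARP1 knockdown. TMX1, a thioredoxin-like protein of the endoplasmic reticulum membrane, stood at 61.0, 49.2 and 37.7 CPM against 3.25, 4.23 and 4.65 CPM. Every knockdown library was under every control library for both genes, and after PARP1 they had the lowest log2 fold changes that the naming rule took, -4.22 ± 0.23 and -3.62 ± 0.20 (SE). RNASEH1 overlaps another tested gene on its own strand, so some of its reads are uncertain. HSP90AB1, the constitutive cytosolic chaperone HSP90 beta, was the most abundant of the strong falls, at 2540, 2590 and 2030 CPM in control and 492, 451 and 318 CPM in PARP1 knockdown. Its pseudogene HSP90AB3P moved alike (-2.55), and the 2 can share reads.

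METTL16, an RNA methyltransferase, fell from 42.5, 44.7 and 30.6 CPM to 6.23, 6.85 and 5.64 CPM. DIAPH1, a formin that nucleates actin filaments, fell from 144, 142 and 98.6 CPM to 23.5, 24.7 and 16.9 CPM. LPIN2, a phosphatidate phosphatase, fell from 19.1, 18.3 and 10.4 CPM to 2.58, 2.62 and 2.57 CPM. In these 3 genes control replicate 3 was the lowest control, nearer to the knockdown libraries than the other two, yet still above each of them.

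On the other side, ISG15, a ubiquitin-like antiviral protein, stood at 118, 134 and 144 CPM in control and 296, 499 and 567 CPM in PARP1 knockdown. LTB, which encodes lymphotoxin beta, stood at 0.674, 0.920 and 1.47 CPM against 3.11, 4.99 and 4.16 CPM, and CASTOR1, a cytosolic arginine sensor, at 0.914, 1.45 and 2.49 CPM against 5.03, 6.34 and 7.12 CPM. The groups were separate for all 3 genes, with PARP1 knockdown replicate 1 the lowest of its group in each. ARF4-AS1 had the highest log2 fold change under the naming rule (1.99), but its rise came mainly from PARP1 knockdown replicate 3, at 4.16 CPM against 0.795 and 1.18 CPM in replicates 1 and 2. Without that replicate its log2 fold change was 0.99 and it no longer passed. It also lies across a tested gene of the other strand. Like LTB and CASTOR1, ARF4-AS1 was below 1 FPKM in control and met the FPKM limit only through the knockdown libraries.

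**Figure D1:**
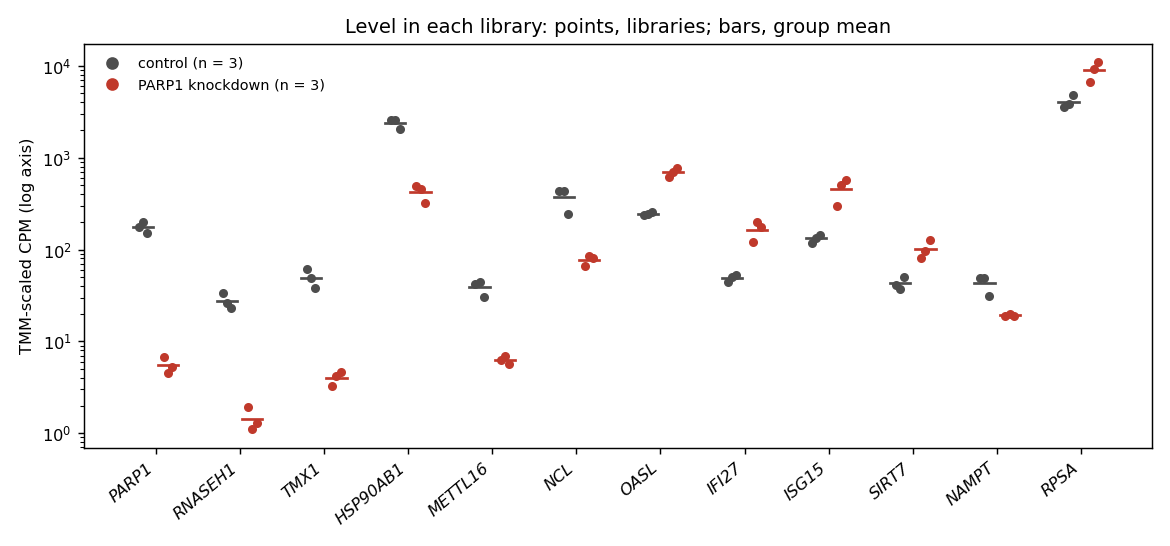
TMM-scaled CPM of 12 genes (log axis) in the 3 control libraries (grey) and the 3 PARP1 knockdown libraries (red), with a bar at each group mean. PARP1 fell to 3.11% of control, and for every gene drawn the knockdown libraries lie entirely on one side of the controls.

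Fold change in PARP1 knockdown went with gene length, base composition and abundance. Genes of short summed exon length and high GC content were mostly higher, and genes of long summed exon length and low GC content mostly lower. In the shortest of 10 equal classes of summed exon length (67 to 1646 bases) the median log2 fold change was 0.65, with 47.1% of genes higher and 5.09% lower. In the longest (11752 bases or more) the median was -0.67, with 7.74% higher and 53.4% lower. Across the classes of GC content the median was -0.60 in the lowest (up to 40.1% GC), -0.72 in the next and 0.74 in the highest (from 61.4% GC), where 67.1% were higher and 1.79% lower. As a description across genes, which do not replicate each other, Spearman's rho of the log2 fold change was -0.43 with exon length, -0.46 with genomic span and 0.52 with GC content. In the highest of 10 equal classes of control FPKM (from 35.7 FPKM) the median was 0.50, with 61.5% higher and 16.5% lower. In class 5 it was -0.39, with 20.5% and 45.8%. Abundant genes were also shorter, with a median summed exon length of 2946 bases in the highest class and 5577 in class 5.

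Length and GC each went with fold change when the genes were divided into 3 equal classes by each. Short GC-rich genes had a median log2 fold change of 0.75, short GC-poor genes -0.26, long GC-rich genes 0.17 and long GC-poor genes -0.74. At a given length the GC-rich genes were therefore the higher ones, and at a given GC content the short genes were.

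The trend could be read in each library. The slope of a gene's log2 level on its exon length, per doubling of length and relative to its mean over the libraries, was 0.203, 0.175 and 0.073 in the control libraries and -0.097, -0.152 and -0.167 in the PARP1 knockdown libraries. The group means were 0.150 ± 0.0684 and -0.139 ± 0.0369 (SD, n = 3), and a two-sided exact permutation test gave p = 0.10, the smallest that 3 against 3 libraries allow. The slope on GC content, per 10 percentage points, was -0.379, -0.323 and -0.094 in control and 0.294, 0.212 and 0.306 in PARP1 knockdown (exact permutation p = 0.10). The libraries did not overlap in either slope, and control replicate 3 was the control nearest to the knockdown. The 100 most abundant genes took 27.0% ± 0.954 of the counts in control and 34.3% ± 2.69 in PARP1 knockdown (SD, n = 3). What set these slopes was not tested.

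**Figure D2:**
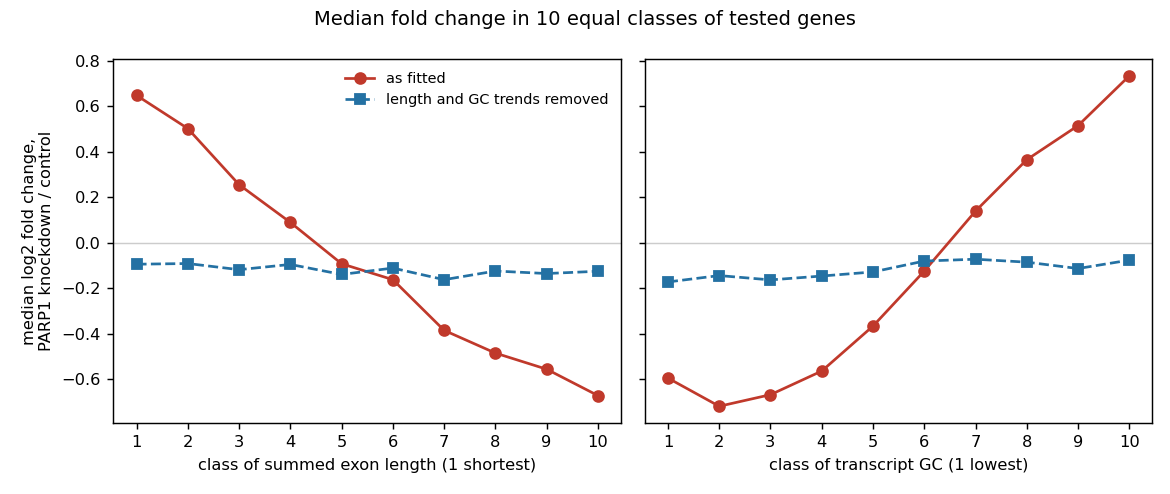
Median log2 fold change of PARP1 knockdown over control in 10 equal classes of summed exon length (left) and of transcript GC content (right), as fitted (red circles) and with the length and GC trends of each library removed (blue squares). As fitted, the medians run from 0.65 to -0.67 over length and lie between -0.72 and 0.74 over GC, and with the trends removed they stay between -0.17 and -0.07.

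A second fit removed a smooth trend on length and on GC from every library, and is called the corrected fit here. It left rho at 0.00 with exon length and 0.01 with GC content. A difference by abundance was left, with medians of 0.06 in the highest class of control FPKM and -0.26 in class 5. In the corrected fit 6316 genes changed (46.6%), 2477 higher (18.3%) and 3839 lower (28.3%). Of the 3681 genes higher in the uncorrected fit, 1752 were also higher in the corrected one, 1751 did not pass and 178 were called lower. Of the 4361 lower genes, 2936 were also lower, 1410 did not pass and 15 were called higher. A call in the uncorrected fit alone does not separate a change of a gene from the trend of its library, and the correction removes any change that follows length or GC, whatever its source. A single value for a gene is from the uncorrected fit unless it is said to be corrected.

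Some genes went against the length trend. In the longest class, where 7.74% of genes rose, OAS1, an oligoadenylate synthetase that responds to double-stranded RNA, rose from 14.1, 15.9 and 13.8 CPM to 33.0, 39.5 and 33.2 CPM. TMED3, a cargo receptor of early secretory vesicles, rose from 107, 119 and 146 CPM to 206, 273 and 319 CPM. ASPSCR1, a tether of the glucose transporter GLUT4, and PDLIM2, a PDZ and LIM domain protein, rose with log2 fold changes of 1.18 and 1.17 (0.76 and 0.81 corrected), though both are GC-rich, at 65.0% and 62.7%, in the class of GC content where most genes rose. In the shortest class, where 5.09% fell, FRG1, a nuclear protein linked to RNA processing, fell from 11.1, 12.3 and 12.8 CPM to 4.24, 4.06 and 3.17 CPM. The groups did not overlap for any of these genes.

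The largest corrected rises included ATP5MG, a subunit of ATP synthase (1.88), OAS1 (1.75), RPSAP58 (1.75), H2BC15 (1.71), MGST3, a microsomal glutathione transferase (1.71), and TMED3 (1.69). U2AF1 was higher still (1.98), but GRCh38 holds a near-identical copy of that splicing factor gene, and RPSAP58 is a pseudogene of a ribosomal protein gene, so the counts of both are uncertain. The largest corrected falls were PARP1 (-4.56), RNASEH1 (-4.15), TMX1 (-3.34), HSP90AB3P (-2.63), HSP90AB1 (-2.44), ZSWIM9, a SWIM zinc finger gene (-2.37), DIAPH1 (-2.25) and UNC119B, a trafficking factor for myristoylated proteins (-2.22). PARP1, RNASEH1, TMX1, HSP90AB1 and DIAPH1 therefore were near the bottom with or without the correction, while ISG15 dropped from 1.78 to 0.40 and CASTOR1 from 1.91 to 1.01 and LTB from 1.98 to 0.76, where LTB no longer passed (edgeR adjusted p = 0.0746).

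The PARP family and the enzymes of ADP-ribose turnover had a share of falls near that of all genes. Of 26 genes in that list 23 were tested: 3 rose, 8 including PARP1 fell and 12 did not pass, with a median log2 fold change of -0.44 against -0.07 for all tested genes. The corrected fit also gave 3 and 8, with a median of -0.18 against -0.12, but its 3 rises were other members: PARP12 (0.46), ZC3HAV1 (0.34) and OARD1 (0.45), named after their values were seen, none of which passed in the uncorrected fit. The members lower as fitted were 34.8% of those tested, PARP1 among them, beside 32.2% of all genes, and the background of the corrected fit is 18.3% higher and 28.3% lower. With library totals, 14 members were lower.

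Among the chain-forming enzymes PARP2, the closest relative of PARP1, stood at 26.0, 24.8 and 19.2 CPM in control and 9.60, 9.05 and 4.65 CPM in knockdown. HPF1, the partner that directs both enzymes to serine, stood at 5.39, 4.50 and 4.52 CPM against 2.65, 2.20 and 1.39 CPM. Both were lower in every knockdown library, and both stayed lower in the corrected fit (-1.19 and -1.36). PARP4, the vault-associated member, fell most after PARP1, from 20.5, 22.3 and 9.82 CPM to 4.97, 3.04 and 4.55 CPM. The mono-ADP-ribosyl transferase TIPARP, a target of the aryl hydrocarbon receptor, fell from 39.5, 37.0 and 21.5 CPM to 11.8, 13 and 11 CPM. Their corrected values were -1.51 and -0.92. PARP9 and its ubiquitin ligase partner DTX3L, which lie head to head on opposite strands and so may share reads, had log2 fold changes of -1.93 and -1.58 (-1.20 and -1.06 corrected). TNKS, the tankyrase that acts at telomeres and in Wnt signalling, had -0.99 as fitted and -0.24 in the corrected fit, where it did not pass. Of this paragraph's genes, PARP2, HPF1, PARP9, DTX3L and TNKS were picked after their values were seen, to complete the family.

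On the side of removal and of the mono-transferases, 3 members rose. ADPRS, the hydrolase that removes ADP-ribose from serine, rose from 79.3, 91.7 and 96.5 CPM to 160, 200 and 248 CPM. MACROD1, a mitochondrial macrodomain hydrolase, and PARP10 had log2 fold changes of 0.97 and 0.89. The knockdown libraries were above the controls in each, but the corrected values were 0.13, -0.20 and 0.30 and none of the 3 passed there.

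Enzymes that make or use NAD+, the substrate of PARP1, leaned upward. Of 19 tested genes of NAD metabolism and the sirtuins, 11 rose (57.9%), 3 fell (15.8%) and 5 did not pass (median 0.54). Among all tested genes 27.1% rose and 32.2% fell. The corrected fit gave 10 and 3 (median 0.30), where 18.3% of all genes rose and 28.3% fell. With library totals 7 were higher and 4 lower (median 0.21). SIRT7, a nucleolar deacetylase, rose from 41.0, 37.3 and 50 CPM to 79.9, 95.8 and 127 CPM. NNMT, which methylates nicotinamide and is abundant in renal carcinoma, rose from 205, 226 and 272 CPM to 363, 505 and 542 CPM. Both kept the call in the corrected fit (0.77 and 0.71), though SIRT7 overlaps a tested gene on its strand. The falls were NAMPT, the rate-limiting enzyme of NAD+ salvage (49.0, 48.7 and 31.4 CPM against 19.1, 19.9 and 18.7 CPM), SIRT1 (-1.32) and the mitochondrial kinase NADK2 (-0.86). Their corrected values of -0.50, -0.95 and -0.42 also passed. SIRT6, a chromatin deacetylase with a role in break repair, rose by 0.98 as fitted but stood at -0.01 in the corrected fit.

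DNA repair genes changed in both directions, as all tested genes did. Of 22 tested genes of base excision and single-strand break repair, in which PARP1 acts, 7 rose, 5 fell and 10 did not pass (median 0.17, and -0.15 with library totals). These shares were 31.8% higher and 22.7% lower, beside 27.1% and 32.2% of all tested genes. The corrected fit gave 3 and 9. TDG, the thymine glycosylase, fell from 13.8, 13.8 and 8.66 CPM to 4.70, 4.82 and 4.55 CPM, and TDP2, which clears topoisomerase adducts, fell from 34.3, 30.5 and 25.8 CPM to 13.1, 13.2 and 11.8 CPM. LIG3, the ligase of this pathway, fell less (-0.88), and all 3 fell in the corrected fit too. The glycosylases NTHL1 (1.27) and MPG (1.32) rose as fitted, but their corrected values of 0.23 and 0.03 did not pass.

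Of 42 tested genes of homologous recombination and the Fanconi pathway, 7 rose (16.7%) and 12 fell (28.6%), with a median of -0.32. Of all tested genes 27.1% rose and 32.2% fell. The corrected fit gave 8 and 7 (median 0.20). RPA1, the large subunit of the single-strand binding complex, fell from 172, 174 and 164 CPM to 81.6, 62.0 and 37.6 CPM, while its small subunit RPA3 rose from 78.0, 88.8 and 87.2 CPM to 120, 172 and 199 CPM. The subunits of the same complex thus moved apart in every library, and did so in the corrected fit as well (-1.14 and 1.21). The nuclease EXO1 (-1.99, -1.54 corrected) and the scaffold SLX4 (-1.39, -1.34 corrected) fell, and XRCC3 (0.88, 0.51 corrected) and FANCG (0.69, 0.43 corrected) rose.

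End joining had 6 of 16 tested genes higher and 6 lower as fitted, and 2 and 5 in the corrected fit. As fitted that is 37.5% each way, beside 27.1% higher and 32.2% lower of all genes. The Ku subunit XRCC5 fell from 209, 192 and 148 CPM to 57.4, 68.0 and 45.9 CPM, and the kinase PRKDC that Ku recruits fell from 110, 119 and 62.8 CPM to 36.1, 37.0 and 52.0 CPM. Both were lower in the corrected fit (-1.13 and -0.60), as was TP53BP1 (-0.86). MAD2L2, a shieldin subunit, rose with values of 1.06 and 0.53 in the uncorrected and corrected fit, and PAXX, a Ku partner, with 1.46 and 0.12, the latter short of the threshold.

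Of 24 tested p53 targets, 10 rose (41.7%) and 7 fell (29.2%), beside 27.1% and 32.2% of all genes (corrected fit 5 and 8). CDKN1A, the cyclin-dependent kinase inhibitor p21, stood at 36.2, 31.4 and 36.1 CPM against 66.6, 65.1 and 75.8 CPM, a log2 fold change of 1.00 that was 0.31 in the corrected fit. PHLDA3, an AKT inhibitor, had 1.10 and 0.32. XPC, a damage sensor of nucleotide excision repair, and PLK2 fell in both fits, with -1.44 and -1.65 as fitted.

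RNA-DNA hybrid factors form a short list that RNASEH1 leads. Of its 15 genes 2 rose (13.3%) and 7 fell (46.7%), with a median of -0.52, beside 27.1% and 32.2% of all genes. The corrected fit gave 1 and 4, where 18.3% of all genes rose and 28.3% fell. The corrected median of the list was -0.17 against -0.12 for all genes, so as a group it was near the background there. DHX9, a helicase that unwinds hybrids, fell from 64.2, 66.8 and 35.6 CPM to 9.67, 12 and 13.4 CPM, and XRN2, the exonuclease of transcription termination, fell from 67.6, 64.7 and 46.5 CPM to 18.7, 15.6 and 13.6 CPM. Of the subunits of the other ribonuclease H, RNASEH2C rose from 23.5, 24.4 and 31.4 CPM to 43.6, 64.3 and 83.1 CPM (0.92 in the corrected fit), and RNASEH2A had a log2 fold change of 0.88 (0.18 in the corrected fit, not past the threshold). RNASEH2B, picked after its value was seen to complete the enzyme, did not pass in either fit (-0.30 and 0.39). The corrected values of DHX9 and XRN2 were -1.67 and -1.55.

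Interferon-stimulated genes split, with several of the largest rises of the whole comparison beside clear falls. Of 47 listed genes 44 were tested: 18 rose (40.9%), 11 fell (25.0%) and 15 did not pass. Among all tested genes 27.1% rose and 32.2% fell. The median log2 fold change was 0.10 against -0.07 for all genes, and it was -0.24 with library totals, against -0.39 for all genes. In the corrected fit 17 rose and 7 fell (median 0.21 against -0.12). Interferon-stimulated genes carry in their promoters the interferon-stimulated response element, which the ISGF3 complex binds. The promoters of ISG15 and IFI27, 2 of the strongest rises, and of IFIT3, a member that fell, are shown to let the element be compared between members that moved in opposite directions. They run 5′ to 3′ on the gene's strand from 250 bases before to 50 after the start, all 3 on the plus strand of GRCh38.p14 (RefSeq), at chr1:1013247-1013546, chr14:94110486-94110785 and chr10:89327747-89328046. Capitals mark matches on either strand to the core of the element, GAAA, any 2 bases and GAAA again.
ISG15: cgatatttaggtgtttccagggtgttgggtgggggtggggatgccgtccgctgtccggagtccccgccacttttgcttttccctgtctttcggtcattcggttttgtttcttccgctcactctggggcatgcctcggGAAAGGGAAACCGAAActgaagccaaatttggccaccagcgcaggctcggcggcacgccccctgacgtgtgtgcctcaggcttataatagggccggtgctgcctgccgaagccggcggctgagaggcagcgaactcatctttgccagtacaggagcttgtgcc
IFI27: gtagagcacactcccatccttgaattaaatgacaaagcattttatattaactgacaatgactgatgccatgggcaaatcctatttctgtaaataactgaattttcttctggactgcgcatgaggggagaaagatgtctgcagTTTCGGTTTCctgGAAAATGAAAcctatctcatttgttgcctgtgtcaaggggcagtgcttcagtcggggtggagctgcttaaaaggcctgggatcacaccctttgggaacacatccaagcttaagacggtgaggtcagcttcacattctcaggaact
IFIT3: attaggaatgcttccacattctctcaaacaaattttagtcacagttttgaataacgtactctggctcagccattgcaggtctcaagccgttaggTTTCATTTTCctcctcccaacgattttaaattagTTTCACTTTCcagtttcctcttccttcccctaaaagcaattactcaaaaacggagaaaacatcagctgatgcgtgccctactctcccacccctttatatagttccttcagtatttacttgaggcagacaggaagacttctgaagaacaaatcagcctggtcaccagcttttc

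Overlapping matches make the longer capital run of ISG15, while IFI27 has a match on each strand and IFIT3 holds 2 on the reverse strand. The motif was in 25 of the 35 tested interferon-stimulated genes with a promoter in the table (71.4%), against 3.65% of all 27305 promoters of the same length. It was in 10 of 14 members that rose (71.4%), 6 of 10 that fell (60.0%) and 9 of 11 that did not pass (81.8%). Among all tested genes the shares were 2.84% of those higher and 2.64% of those lower. The letters of the element were thus found on both sides, and a match is a description of the sequence, not evidence of binding.

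OASL, a relative of the oligoadenylate synthetases, was abundant and rose in every knockdown library, from 237, 243 and 256 CPM to 610, 705 and 771 CPM. IFI27 rose from 44.4, 50.3 and 52.7 CPM to 121, 199 and 175 CPM. The rise of OASL was about the same in the corrected fit (1.53 against 1.5) and that of IFI27 somewhat smaller (1.45 against 1.75), whereas that of ISG15 shrank to 0.40. IFIT3 stood at 53.9, 49.2 and 32.2 CPM against 25.2, 29.8 and 15.7 CPM, and GBP1, an interferon-induced GTPase, at 15.7, 16.4 and 10.6 CPM against 6.49, 7.27 and 5.34 CPM. TRIM25, the ubiquitin ligase that acts on RIG-I, fell from 237, 234 and 226 CPM to 169, 97.8 and 88.7 CPM. The falls of IFIT3, GBP1 and TRIM25 were smaller but still called in the corrected fit, at -0.45, -0.54 and -0.62.

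Upstream of these genes, the list of nucleic acid sensors and interferons had 6 of 20 tested members higher and 8 lower as fitted. The corrected fit gave 4 and 6. For all tested genes the shares were 27.1% higher and 32.2% lower as fitted, and 18.3% and 28.3% in the corrected fit. As a group the list was therefore near the background in the corrected fit, with a median of -0.04 against -0.12. IFNB1, interferon beta itself, was low, at 2.02, 1.16 and 1.80 CPM in control and 4.37, 4.31 and 8.71 CPM in PARP1 knockdown. DHX58, a RIG-I-like receptor, rose as well (1.3, and 0.80 in the corrected fit). ADAR, which edits double-stranded RNA and keeps it from the sensors, fell from 169, 166 and 126 CPM to 48.2, 39.3 and 34.9 CPM, and SAMHD1, a deoxynucleotide hydrolase, fell by 1.60 on the log2 scale. Both falls were called in the corrected fit too, at -1.45 for ADAR and -0.91 for SAMHD1.

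Antigen presentation had 14 of 22 tested genes higher and 5 lower as fitted (median 0.59) but 7 and 8 in the corrected fit (median -0.06). The immunoproteasome subunits PSMB9 (48.9, 57.5 and 69.6 CPM against 101, 155 and 165 CPM) and PSMB8 (1.01) and the class I gene HLA-F (1.16) rose in both fits. PSMB8 and PSMB9 lie beside each other on opposite strands, and class I genes are near-identical in parts, so their reads are uncertain. The peptide trimmer ERAP1 fell from 12.9, 12.1 and 8.80 CPM to 1.92, 2.71 and 1.09 CPM, and the chaperone CANX from 420, 395 and 249 CPM to 81.7, 95.3 and 87.3 CPM, with corrected values of -1.82 and -1.26.

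NF-kB targets and cytokines were 12 higher and 5 lower of 33 tested as fitted (median 0.23, and -0.09 with library totals), and 4 and 11 in the corrected fit. CCL2, a monocyte chemoattractant, rose from 4.91, 3.87 and 4.70 CPM to 10.8, 10.1 and 10.7 CPM and by nearly as much when corrected (1.23 and 1.14). NFKB1, the p105 subunit, fell from 83.9, 68.2 and 63.3 CPM to 28.1, 20.7 and 11.6 CPM, and the feedback inhibitor TNFAIP3 fell from 94.8, 73.3 and 59.8 CPM to 34.8, 25.8 and 28.0 CPM. Immediate early genes had 4 of 22 higher and 5 lower as fitted, and 0 higher and 15 lower in the corrected fit by edgeR, where KLF6 (-1.20), EGR1 (-1.08, and -0.62 as fitted, a call lost at -0.38 without control replicate 1) and FOSL2 (-0.81) were among the falls. JUNB, an AP-1 subunit, had 0.70 as fitted and -0.49 when corrected, so its direction depends on that choice.

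Nearly all cytosolic ribosomal protein genes rose. Of the 79 cytosolic ribosomal protein genes tested, 75 rose, 0 fell and 4 did not pass by edgeR, with a median log2 fold change of 0.94, and the corrected fit gave 69 higher and 0 lower with a median of 0.71. With library totals 68 were higher and 2 lower. For abundant genes the background is higher: in the highest class of control FPKM 61.5% of all genes rose as fitted. RPL18 rose from 920, 1000 and 1190 CPM to 1830, 2500 and 2760 CPM, and RPS2, which did not pass in the corrected fit (0.27), from 5050, 5490 and 6410 CPM to 9790, 13200 and 15200 CPM. The list took 10.9%, 11.4% and 12.6% of the counts in control and 14.9%, 18% and 19.1% in knockdown, so each knockdown library stood above each control. PARP1 knockdown replicate 1 was the nearest to control, at a list median of 0.57 above the control mean on the log2 scale, against 1.03 and 1.16 in replicates 2 and 3. Ribosomal protein genes have many processed pseudogenes, so some of their reads are uncertain.

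Mitochondrial ribosomal proteins, made from nuclear genes, had 59 of 77 higher and 8 lower (median 0.73), and 45 and 11 in the corrected fit (median 0.41). MRPL54 rose from 69.1, 74.0 and 86.5 CPM to 133, 216 and 248 CPM but stood at 0.04 when corrected. MRPS9 fell from 35.7, 36.6 and 32.6 CPM to 18.5, 19 and 11.8 CPM, and MRPL1 by 0.88 on the log2 scale, and both fell in the corrected fit (-1.14 and -1.13).

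Nuclear genes of the respiratory complexes were also mostly higher: 65 of 75 rose, 3 fell and 7 did not pass (median 0.82), and 55 and 1 in the corrected fit (median 0.57). NDUFS8, an iron-sulfur subunit of complex I, rose from 77.7, 80.7 and 98.6 CPM to 151, 224 and 282 CPM (0.76 corrected), and ATP5MG from 154, 157 and 195 CPM to 284, 407 and 456 CPM. The 3 that fell were NDUFS1, the largest complex I subunit (70.5, 78.5 and 60.4 CPM against 25.7, 22.9 and 14.1 CPM), ATP5F1A, the alpha subunit of ATP synthase (-0.88), and UQCRC2, a core subunit of complex III (-0.59). NDUFS1 was lower in the corrected fit too (-0.97), and the other 2 did not pass there.

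The 13 protein genes of the mitochondrial genome went against their nuclear partners. As fitted 1 rose and 8 fell (median -0.34), and in the corrected fit 0 rose by edgeR and 10 fell (median -0.58). These transcripts are short, with a median exon length of 784 bases, a class in which most called genes rose. They are also GC-poor, with a median GC content of 44.3%. Short GC-poor genes had a median of -0.26 as fitted, with 17.6% higher and 36.6% lower, and -0.20 in the corrected fit. The falls as fitted were therefore in the direction of genes of like length and GC content. MT-ND5 stood at 367, 314 and 213 CPM in control and 187, 165 and 151 CPM in knockdown, and MT-CO1, picked after its value was seen for its abundance, at 1690, 1440 and 1210 CPM against 1210, 1240 and 1090 CPM. The groups did not overlap for MT-ND5, whereas the control and knockdown libraries met for MT-CO1, which passed only in the corrected fit (edgeR adjusted p = 0.0634 and 0.00362). MT-ND4L and MT-ATP8, the strongest of the other falls (-1.19 and -0.87), overlap MT-ND4 and MT-ATP6. MT-ND3 rose (0.39), a call lost without control replicate 1 (0.37) or PARP1 knockdown replicate 2 (0.30). Against TRIM28 knockdown, too, 10 of the 13 were lower and 0 higher in PARP1 knockdown (edgeR). Without single libraries the number of falls ran from 5 to 10.

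Replication-dependent histone genes, whose transcripts are very short and mostly lack a poly(A) tail, had 35 of 46 tested members higher and 0 lower as fitted by edgeR (median 0.94). In the corrected fit 11 were higher and 4 lower, with a median of 0.07. H2AC7 stood at 1.3, 1.45 and 1.57 CPM against 4.44, 4.82 and 6.83 CPM, and H1-4 at 21.3, 19.3 and 24.5 CPM against 36.0, 52.7 and 55.9 CPM. The libraries of the groups were separate, but the corrected log2 fold changes were 0.54 and -0.08 and neither passed. H2BC15, whose model is far longer at 4265 bases, rose in both fits (1.34 and 1.71). The list median was 0.52 in PARP1 knockdown replicate 1 and 1.16 and 1.11 in replicates 2 and 3. Libraries made with oligo(dT) count few of these transcripts, and reads of near-identical histone genes are uncertain.

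The proteasome had 17 of 32 genes higher and 8 lower (median 0.41), and 18 and 5 in the corrected fit (median 0.32). Division into its parts was made after the values were seen. Of 14 subunits of the core particle, which holds the proteolytic sites, 10 rose and 1 fell (median 0.70), and of 18 subunits of the regulatory particle, which unfolds substrates, 7 rose and 7 fell (median -0.09). PSMB3 rose from 373, 381 and 467 CPM to 693, 935 and 1090 CPM, while PSMD1 fell from 55.8, 65.0 and 43.1 CPM to 15.6, 14.2 and 15.2 CPM and PSMC6 from 47.8, 47.1 and 32.7 CPM to 13.6, 16.2 and 15.2 CPM. The corrected medians of the parts were 0.61 and 0.03, and the corrected values of PSMB3, PSMD1 and PSMC6 were 0.53, -1.08 and -0.91.

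**Figure D3:**
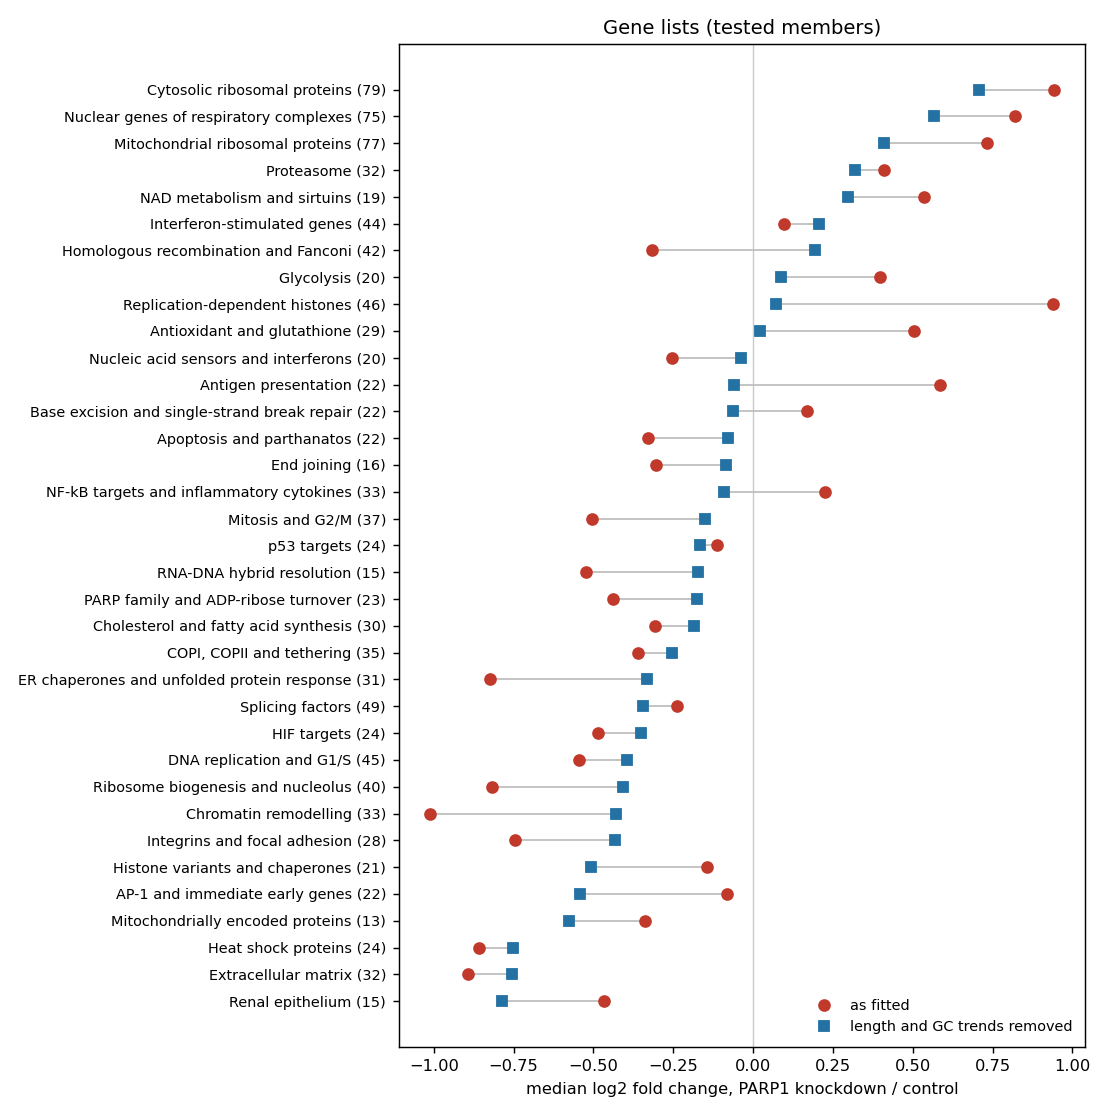
Median log2 fold change of PARP1 knockdown over control for 35 gene lists, as fitted (red circles) and with length and GC trends removed (blue squares), with the number of tested members in brackets. The cytosolic ribosomal proteins (0.94 and 0.71) and nuclear respiratory genes (0.82 and 0.57) lie high in both fits and the heat shock proteins (-0.86 and -0.75) and extracellular matrix (-0.89 and -0.76) low in both, while the replication-dependent histones move from 0.94 to 0.07.

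Chaperones were among the genes that fell most. Of 24 heat shock genes 15 fell, 2 rose and 7 did not pass (median -0.86), and the corrected fit gave 15 lower and 0 higher by edgeR (median -0.75). The 3 smallest adjusted p values belonged to HSP90AB1, given above, and to 2 chaperones of the mitochondrial matrix: HSPA9 fell from 279, 269 and 210 CPM to 70.5, 76.4 and 54.0 CPM, and HSPD1 from 215, 218 and 149 CPM to 50.6, 60.7 and 49.2 CPM. Their corrected values were -1.24 and -1.22. The list took 0.815%, 0.819% and 0.699% of the counts in control and 0.367%, 0.351% and 0.297% in knockdown. HSF1, the heat shock transcription factor, rose as fitted (0.75) but not in the corrected fit (0.14), and HSPB1 had 0.70 and -0.52, so its direction depends on the correction.

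In the endoplasmic reticulum, 20 of 31 chaperone and unfolded protein response genes fell and 7 rose (median -0.83), and 14 fell and 5 rose in the corrected fit (median -0.33). After TMX1 and CANX came PDIA4, a disulfide isomerase, which fell from 506, 489 and 554 CPM to 201, 149 and 134 CPM and by more when corrected (-1.94 against -1.68). CRELD2 (0.78) and PPIB (0.74) rose in both fits. Vesicle coats divided by subunit: of 35 genes of COPI, COPII and tethering complexes 12 rose and 17 fell (10 and 17 in the corrected fit). As fitted these were 34.3% and 48.6%, beside 27.1% and 32.2% of all genes. COPA fell from 265, 249 and 199 CPM to 64.9, 43.7 and 36.8 CPM and COPB2 from 116, 114 and 68.9 CPM to 19, 17.8 and 12 CPM, while COPE, a small subunit of the same coat, rose from 179, 177 and 211 CPM to 299, 377 and 450 CPM. In the corrected fit COPE stood at 0.07 and did not pass, and COPA (-1.71) and COPB2 (-1.83) were still lower. TRAPPC5, a tethering subunit, rose from 3.8, 2.86 and 5.76 CPM to 10, 12.6 and 24.2 CPM. On the other strand COPA and COPB2 each overlap a tested gene, and no source used here gives the strand setting of the counting, so their reads are uncertain. The same holds for PARP2, MACROD1, PARP10, NADK2, LIG3, MPG, RPA1, RPA3, XRCC3, TP53BP1, MAD2L2, XRN2, RNASEH2C, RNASEH2A, IFIT3, TRIM25, ERAP1, TNFAIP3, FOSL2, JUNB, HSPD1, HSF1, CRELD2, NHP2, CHD3, HDAC2, VCL, CCND1, UBE2S, CHAF1A, TXNRD1 and ZSWIM9.

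Genes that build ribosomes fell while the ribosomal proteins rose. Of 40 genes of ribosome biogenesis and the nucleolus 24 fell and 11 rose (median -0.82), and 22 and 6 in the corrected fit (median -0.41). NCL, the major nucleolar protein nucleolin, fell from 437, 432 and 244 CPM to 65.8, 84.5 and 81.0 CPM. POLR1A, the catalytic subunit of RNA polymerase I, fell from 150, 145 and 108 CPM to 35.8, 32.7 and 28.8 CPM, and NOLC1 from 165, 157 and 125 CPM to 47.8, 38.9 and 29.4 CPM. All 3 were called in the corrected fit, between -1.69 and -1.76. Small members of ribonucleoprotein particles rose, with NOP10 at 1.05 (0.82 corrected) and NHP2 at 0.99 (0.15 corrected, not called).

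Splicing factors changed in both directions. Of 49 genes 23 fell (46.9%) and 14 rose (28.6%), beside 32.2% and 27.1% of all genes (median -0.24). In the corrected fit 28 fell and 12 rose (median -0.35). SNRNP200, the helicase that unwinds U4 from U6, fell from 501, 494 and 400 CPM to 118, 94.2 and 83.9 CPM, HNRNPU from 423, 441 and 280 CPM to 90.5, 99.3 and 92.0 CPM, and HNRNPA2B1 from 494, 535 and 362 CPM to 123, 130 and 102 CPM. The small Sm protein SNRPG rose from 177, 200 and 235 CPM to 302, 427 and 481 CPM, and did so in the corrected fit (0.85), while SF3B5 (1.3) and SNRPD2 (1.03), small subunits that also rose, did not pass there (0.27 each). The corrected values of SNRNP200, HNRNPU and HNRNPA2B1 were -2.0, -1.37 and -1.20. HNRNPU and HNRNPA2B1 lie across tested genes of the other strand.

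Chromatin remodelling genes had a median log2 fold change of -1.01, below that of every other list drawn: 21 of 33 fell, 2 rose and 10 did not pass. They are long, with a median exon length of 12406 bases, and in the corrected fit the median was -0.43 with 18 lower and 2 higher. CHD3, a NuRD helicase, fell from 122, 135 and 92.8 CPM to 33.1, 29.9 and 28.5 CPM. ARID1A, the DNA-binding subunit of SWI/SNF, fell from 62.3, 61.9 and 48.3 CPM to 20.6, 15.6 and 19.3 CPM, and the deacetylase HDAC2 from 55.6, 53 and 36.3 CPM to 18.2, 15 and 13.7 CPM. The corrected values were -1.97 for CHD3, -1.55 for ARID1A and -0.89 for HDAC2. The rises were SMARCB1, a SWI/SNF subunit (0.49, and 0.17 with library totals, where it did not pass), and MBD3, a NuRD subunit, from 117, 117 and 142 CPM to 205, 245 and 353 CPM.

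**Figure D4:**
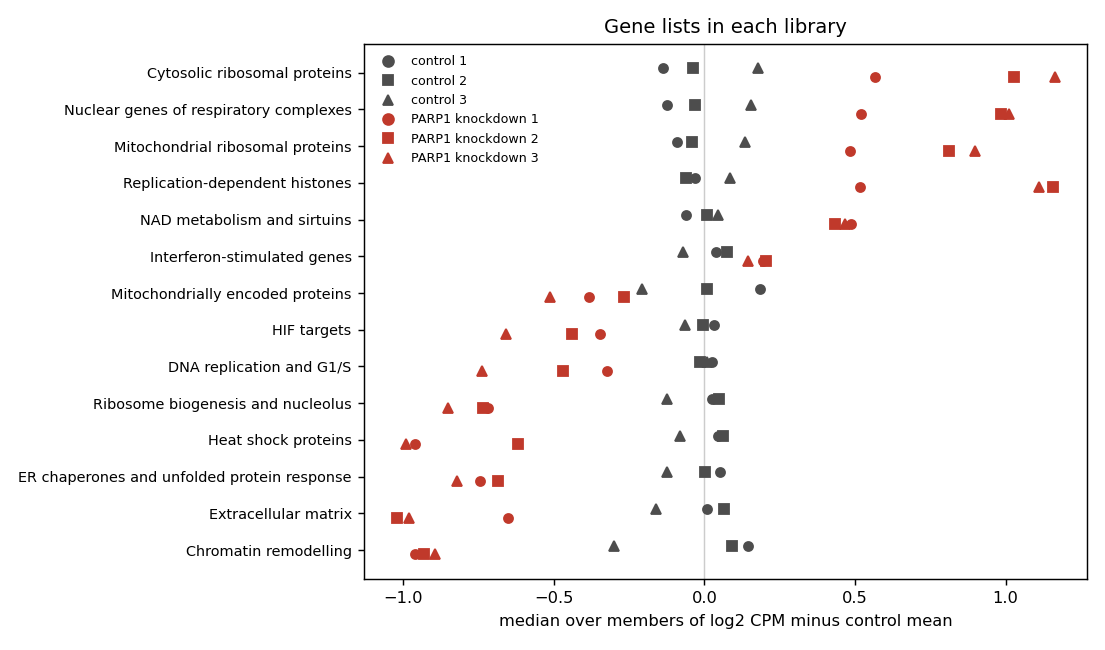
For 14 gene lists, the median over members of the log2 CPM minus the control mean, in each control library (grey, upper row) and each PARP1 knockdown library (red, lower row), with circles, squares and triangles for replicates 1, 2 and 3. The groups are separate in every list drawn, and in the ribosomal, respiratory and histone lists PARP1 knockdown replicate 1 (0.57, 0.52 and 0.52) lies nearer to control than replicates 2 and 3. Not all lists are drawn, and in some left out the groups overlap. In base excision repair, control replicate 3 was at 0.08 and PARP1 knockdown replicate 1 at 0.07.

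Matrix and adhesion genes fell more often than they rose. Of 37 extracellular matrix genes 32 were tested, 20 fell and 3 rose (median -0.89), and in the corrected fit 25 fell and 0 rose by edgeR (median -0.76). FN1, fibronectin, fell from 5140, 4790 and 3540 CPM to 1400, 1160 and 1160 CPM, COL6A3, a collagen VI chain, from 1560, 1540 and 1170 CPM to 421, 325 and 292 CPM, and LAMC1, a laminin chain, from 284, 280 and 197 CPM to 73.5, 62.2 and 66.1 CPM. The list took 1.94%, 1.88% and 1.59% of the counts in control and 1.03%, 0.717% and 0.671% in knockdown. Of 28 genes of integrins and focal adhesions 17 fell and 3 rose (16 and 1 in the corrected fit), among them VCL, vinculin (285, 264 and 198 CPM against 80.3, 60.9 and 52.8 CPM), ITGB3 (-1.51) and the adhesion scaffold TNS3 (-1.45). Corrected, these 3 were at -1.42, -1.29 and -1.38, and FN1, COL6A3 and LAMC1 at -1.34, -1.79 and -1.39.

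Renal epithelial genes included 24 in the list, of which 15 were tested, 8 fell, 1 rose and 6 did not pass (median -0.47), and 9 and 1 in the corrected fit (median -0.79). VCAM1, an adhesion molecule of renal carcinoma, fell from 128, 96.0 and 77.1 CPM to 27.5, 34.2 and 26.9 CPM, and the cadherins CDH2 and CDH6 fell by 1.75 and 1.81 on the log2 scale. The corrected values of the 3 were -1.23, -1.04 and -1.03. GGT1, a brush border transferase, was the 1 that rose, from 1.88, 2.76 and 1.98 CPM to 3.91, 3.55 and 6.23 CPM, and its corrected value of 0.42 did not pass. Targets of hypoxia-inducible factor, which is constitutively active in cells without functional VHL such as these, had 12 of 24 tested members lower and 3 higher (11 and 4 in the corrected fit). EPAS1, which encodes HIF-2 alpha, fell from 73.1, 70.6 and 60.0 CPM to 29.7, 16.5 and 17.8 CPM, and CCND1, cyclin D1, from 624, 610 and 453 CPM to 269, 221 and 176 CPM. P4HA1, a collagen prolyl hydroxylase, fell by 1.59 on the log2 scale. BNIP3, a mitophagy receptor, rose in both fits (0.57 and 0.64) but not with library totals (0.23).

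Cell cycle genes were more often lower than higher as fitted, beside 32.2% lower and 27.1% higher of all tested genes. In DNA replication and G1/S 23 of 45 fell (51.1%) and 11 rose (24.4%), with a median of -0.55. The corrected fit gave 24 and 4 (median -0.40), where 28.3% of all genes fell and 18.3% rose. The helicase subunit MCM6 fell from 44.9, 37.2 and 28.8 CPM to 11.5, 8.88 and 5.74 CPM, and RRM1 of ribonucleotide reductase from 69.3, 63.8 and 55.1 CPM to 20.1, 23.1 and 15.4 CPM. POLD2, a subunit of DNA polymerase delta, rose from 255, 274 and 322 CPM to 436, 533 and 608 CPM, in both fits. In mitosis and G2/M 19 of 37 fell (51.4%) and 8 rose (21.6%), with a median of -0.50. The corrected fit gave 14 and 6, with a median of -0.15, near the -0.12 of all genes. The list took 0.456% of the counts in control and 0.454% in knockdown on average. TPX2, a spindle assembly factor, stood at 215, 225 and 156 CPM against 65.4, 55.4 and 43.9 CPM. UBE2S, an ubiquitin-conjugating enzyme of the anaphase-promoting complex, stood at 362, 373 and 439 CPM against 719, 968 and 1100 CPM. The corrected values of TPX2 and UBE2S were -1.61 and 0.51. The histone chaperone subunit CHAF1A fell in both fits (-0.96 and -1.35) within a list of histone variants and chaperones in which 8 of 21 rose and 9 fell as fitted, 5 and 13 in the corrected fit, and 1 and 11 with library totals. H2AX, the variant marked at DNA breaks, had 0.88 as fitted and -0.40 when corrected.

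Metabolic lists were mixed. Glycolysis had 11 of 20 higher and 6 lower as fitted, and 5 and 5 in the corrected fit. The hexokinase HK2 fell from 64.5, 65.4 and 48.5 CPM to 23.6, 21 and 14.6 CPM, and HK1 from 461, 499 and 459 CPM to 277, 189 and 135 CPM, while PFKL, the liver-type phosphofructokinase, rose from 133, 141 and 162 CPM to 255, 292 and 357 CPM. In cholesterol and fatty acid synthesis 10 of 30 rose and 14 fell (4 and 11 in the corrected fit, 2 and 16 with library totals). As fitted these were 33.3% and 46.7%, beside 27.1% and 32.2% of all genes. VLDLR stood at 20.4, 17.4 and 12.5 CPM against 3.05, 2.62 and 2.57 CPM. SCD, the stearoyl desaturase, stood at 111, 114 and 95.4 CPM against 47.7, 33.3 and 28.1 CPM. The corrected values of VLDLR and SCD were -1.85 and -1.17. Antioxidant genes had 17 of 29 higher and 6 lower, against 9 and 6 when corrected. GPX1 rose from 425, 433 and 528 CPM to 831, 1200 and 1470 CPM with a corrected value of 0.02, and TXNRD1, thioredoxin reductase, fell from 212, 192 and 125 CPM to 48.6, 39.5 and 30.3 CPM with a corrected value of -1.58.

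Of 22 genes of apoptosis and of parthanatos, the form of death that follows excess PARP1 activity, 10 rose and 10 fell (5 and 8 in the corrected fit). As fitted that is 45.5% each way, beside 27.1% higher and 32.2% lower of all genes. MCL1, an anti-apoptotic BCL2 relative, fell from 176, 160 and 121 CPM to 61.6, 52.0 and 43.3 CPM. RNF146, the ubiquitin ligase that reads poly(ADP-ribose), fell from 15, 11.8 and 8.85 CPM to 2.85, 4.14 and 2.67 CPM. BID, a BH3-only protein, rose from 102, 106 and 123 CPM to 181, 249 and 281 CPM. The 3 calls were the same in the corrected fit, at -1.01 for MCL1, -1.57 for RNF146 and 1.19 for BID.

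The table's own pathway and GO columns were summarised for terms of 15 to 300 tested genes, by the median log2 fold change in the corrected fit. Among 296 pathways 71 had a median above 0 as fitted and 48 in the corrected fit, and for 41 the sign differed between the fits. The 6 pathways with the highest corrected medians were Glyoxylate and dicarboxylate metabolism (0.33), Autoimmune thyroid disease (0.31), Graft-versus-host disease (0.31), Glycosylphosphatidylinositol (GPI)-anchor biosynthesis (0.30), Proteasome (0.23) and Pyruvate metabolism (0.22). The 6 lowest were Adherens junction (-0.70), Mucin type O-glycan biosynthesis (-0.65), TGF-beta signaling pathway (-0.54), Longevity regulating pathway - multiple species (-0.51), Type II diabetes mellitus (-0.49) and Aldosterone-regulated sodium reabsorption (-0.48). In Adherens junction 43 of 70 tested genes fell and 7 rose as fitted, and 40 and 5 in the corrected fit. In TGF-beta signaling 37 of 67 fell and 8 rose, and 35 and 9 in the corrected fit. The corrected median over all tested genes was -0.12.

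Among 1748 GO terms 380 had a median above 0 as fitted and 276 when corrected, and 305 changed sign. The 6 highest corrected medians were those of the cytoplasmic side of rough endoplasmic reticulum membrane (0.63), 2 iron, 2 sulfur cluster binding (0.58), mitochondrial respiratory chain complex IV (0.57), small ribosomal subunit (0.55), mitochondrial ribosome (0.51) and mitochondrial proton-transporting ATP synthase complex (0.50). The 6 lowest were SMAD protein signal transduction (-0.87), RNA export from nucleus (-0.86), embryonic morphogenesis (-0.80), cell-cell junction assembly (-0.79), SWI/SNF complex (-0.79) and negative regulation of insulin receptor signaling pathway (-0.77). Of 28 genes of SMAD protein signal transduction 19 fell and 1 rose as fitted, against 12 of 17 higher and 1 lower in complex IV. Terms share genes with each other and with the lists, so these are descriptions of the same calls.

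The PARP1 knockdown libraries differed more among themselves than the controls did. The median over genes of the SD of log2 CPM was 0.27 in PARP1 knockdown, 0.19 in control and 0.17 in TRIM28 knockdown (n = 3 each), and 64.7% of the genes were more spread in PARP1 knockdown than in control. An SD above 0.5 was found for 2397 genes in PARP1 knockdown (17.7%) and for 1273 in control (9.39%). Among the 2397, the library farthest from the other two was replicate 3 for 954, replicate 1 for 875 and replicate 2 for 568. The total counts were lower in the knockdown libraries, as given above, and their part in this spread was not tested.

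In the principal components of the 6 libraries the first held 73.2% of the variance and separated the groups, with control at -63.6, -58.0 and -29.2 and PARP1 knockdown at 34.8, 49.3 and 66.7. The second held 10.8% and drew out the knockdown libraries alone, at -34.9, -2.80 and 31.0, against -9.77 to 9.35 in control. Replicates 1 and 3 thus lay at opposite ends with replicate 2 between them. Of the genes with an SD above 0.5 in PARP1 knockdown 38.8% were called, against 59.3% of all tested genes. Spread within groups enters the test itself, so the lower share follows in part from how these genes were picked.

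Among genes with a symbol and a mean FPKM of at least 1, the 5 of the widest spread all lay in the shortest length class. FPKM divides by length, so genes of low counts meet that limit only where they are short. The length of these 5 therefore follows in part from how they were picked. The 2397 genes with an SD above 0.5, taken without that limit, had a median exon length of 5033 bases, against 5054.5 for all tested genes. RN7SL5P, a pseudogene of the signal recognition particle RNA, stood at 13.6, 12 and 1.98 CPM in PARP1 knockdown and 4.76, 1.36 and 1.11 CPM in control. H3C12, a histone H3 gene, stood at 0.530, 3.55 and 2.97 CPM against 0.962, 1.79 and 0.968 CPM, and GACAT2, a long noncoding RNA, at 0.464, 2.28 and 2.97 CPM against 1.06, 0.775 and 1.15 CPM. Replicate 3 was the outlying library for RN7SL5P and replicate 1 for the other two. LINC01775 and REPIN1-AS1, also noncoding, stood below 1.3 CPM in every library. Only RN7SL5P of these 5 was called (edgeR adjusted p = 0.0127), a call lost without control replicate 3 (1.66), with DESeq2 (1.99) and in the corrected fit (0.82).

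**Figure D5:**
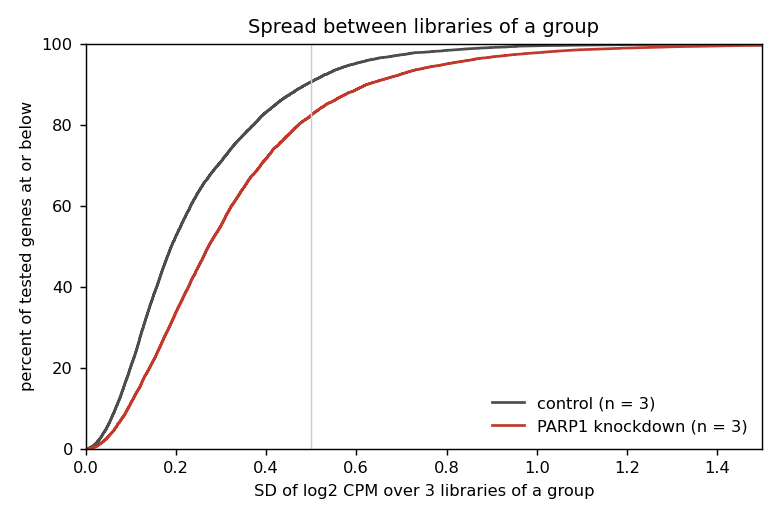
Cumulative share of the tested genes (percent) against the SD of log2 CPM over the 3 libraries of a group, for control (grey) and PARP1 knockdown (red), with a vertical line at an SD of 0.5. The knockdown curve lies to the right: 17.7% of genes are beyond the line, against 9.39% in control.

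Calls that need no single library were counted by leaving out each of the 6 in turn. Of the 3681 genes higher, 2881 were called higher in all 6 such fits, and of the 4361 lower 3321 were called lower in all 6. Genes changed numbered between 6862 and 8295 in these fits. Rises of at least 2-fold numbered 519 without PARP1 knockdown replicate 3, against 996 with all libraries. Among the lists, 74 of the 75 rises of cytosolic ribosomal protein genes and the rise of OAS1, OASL, IFI27 and ISG15 were in every fit, as were the falls of PARP1, RNASEH1, TMX1, HSP90AB1 and NCL.

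A direct comparison with TRIM28 knockdown, which shares the PARP1 knockdown libraries with the comparison above, set PARP1 knockdown beside a different silencing in the same cells. That group was itself partway from control in several of these measures: PARP1 averaged 93.8 CPM in it against 177 in control, HSP90AB1 1130 against 2390 and FN1 2080 against 4490, and its length slopes of -0.01, -0.024 and -0.001 lay between those of the other groups. Here 3407 genes differed (25.1%), 1612 higher (11.9%) and 1795 lower (13.2%) in PARP1 knockdown. PARP1 itself was lower by 4.07 on the log2 scale, RNASEH1 differed by -3.56, TMX1 by -2.98 and HSP90AB1 by -1.43 (edgeR adjusted p = 4.13e-15, 1.07e-10, 1.1e-10 and 5.81e-07). Of the cytosolic ribosomal protein genes 47 of 79 were higher and 0 lower by edgeR, and of the replication-dependent histones 25 of 46 and 0. Extracellular matrix had 13 of 32 lower and 0 higher, and interferon-stimulated genes 7 of 44 higher and 3 lower, where OAS1 (0.24, adjusted p = 0.225) and CCL2 (0.16, adjusted p = 0.578) did not pass. The count of genes fell to 1896 with length and GC trends removed and ran from 1654 to 4714 without single libraries, the lowest without TRIM28 knockdown replicate 1.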

How the data were processed

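Poly(A) RNA of 9 libraries was sequenced. The authors deposited whole-number counts per gene with FPKM values, a gene length and annotation columns, per the file headers, and the deposited FPKM equal the count divided by length and library total. The submitters' processing notes name Trim Galore 0.6.6, STAR 2.7.9a, featureCounts 2.0.1 and DESeq2 1.30.0 on GRCh38. Neither annotation release nor strand setting is stated.

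Deposited counts of all 9 libraries were fitted with edgeR 4.0.16 (R 4.3.3): TMM factors, filterByExpr, quasi-likelihood F test, 3 groups, Benjamini-Hochberg threshold 0.05. CPM values are TMM-scaled. The corrected fit added per-library lowess offsets (span 0.3) for exon length and GC content, the latter known for 13390 tested genes. The procedure was tested on simulated data. Alternatives were DESeq2 1.42.0, other scalings and filters, limma 3.58.1 on log2(FPKM + 1) or log2(FPKM + 0.1), a replicate block and single libraries left out.

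By rule the named genes were, among called genes with a mean FPKM of at least 1 over the 6 libraries and separate groups, the 8 largest rises and 8 largest falls in each fit and 5 per direction against the length trend. The 5 most spread genes had the FPKM limit alone, and up to 3 genes per direction in each list had neither limit. The members and lists were chosen with earlier results of these data known. Promoters came from RefSeq (GRCh38.p14), matched for 10117 tested genes. Some genes are not reported here.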

Additional observations from a re-analysis of the deposited data

How the results depend on the processing

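The 8042 changed genes numbered 6862 to 8295 without single libraries, and 5169 to 6900 when length and GC trends were also removed, an alternative chosen after seeing the data (5169 and 5194 without control replicates 1 and 2). The 3681 higher genes numbered 2024 with library totals, 2140 with limma on FPKM + 1, 2134 on FPKM + 0.1 and 1904 without its filter. They were 3296 to 3961 without single libraries and 2050 to 2895 with the trends also removed (2248 and 2250 without control replicates 1 and 2, 2050 and 2142 without PARP1 knockdown replicates 2 and 3), against 3566 to 4486 and 2921 to 4005 lower genes. Rises of at least 2-fold (996) were 160 with library totals, 31, 121 and 29 with the same limma settings, 652 with the length trend removed and 461 with both. They ranged from 519 to 1485 without single libraries and from 330 to 697 with the trends also removed (441, 467 and 662 without control replicates 1, 2 and 3, 434 and 330 without PARP1 knockdown replicates 2 and 3). Falls of at least 2-fold (2547) were 3845 with library totals, 1401 and 1398 with limma on FPKM + 1 with and without its filter, and 1456 with both trends removed. They ranged from 2057 to 2822 and from 1085 to 1732 (1085, 1130 and 1546, then 1428 and 1285, for the same libraries).

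Against TRIM28 knockdown the 3407 genes became 63 with limma without its filter and 1896 with both trends removed, and 1654 without TRIM28 knockdown replicate 1, 2254 without its replicate 3, 2149 without PARP1 knockdown replicate 2 and 1712 without its replicate 3, up to 4714. The cause of these shifts was not tested. Of the 6 highest pathways 2 were also among the 6 highest when terms had 30 to 300 genes, and 3 of the 6 lowest.

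The labels share replicate numbers, but same-numbered control and PARP1 knockdown libraries correlated by only 0.0344, 0.03 and 0.0796 in their deviations, and control replicate 1 correlated better with PARP1 knockdown replicate 2 (0.0422) than with its own number. With a replicate block 8071 genes changed, 3718 higher and 4353 lower.

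Signs turned as follows. With both trends removed TRIM28 was at -0.27, MACROD1 at -0.20, SIRT6 at -0.013, JUNB at -0.49, H1-4 at -0.077, HSPB1 at -0.52, H2AX at -0.40, H3C12 at -0.44, LINC01775 at -1.06 and REPIN1-AS1 at -0.78, and, from below 0, ZC3HAV1 at 0.341, OARD1 at 0.451 and RNASEH2B at 0.39. With the length trend alone removed PAX8 was at 0.16, MT-ND3 at -0.32, LINC01775 at -0.41 and REPIN1-AS1 at -0.48, with ZC3HAV1 at 0.079, OARD1 at 0.118 and RNASEH2B at 0.246. With library totals TRIM28 was at -0.011, PARP12 at -0.013, LINC01775 at -0.042 and REPIN1-AS1 at -0.16. With limma on FPKM + 1, with or without its filter, TRIM28 was at -0.013, PARP12 at -0.047, LINC01775 at -0.17 and REPIN1-AS1 at -0.21, and on FPKM + 0.1 at -0.013, -0.053, -0.88 and -0.63. Without single libraries LINC01775 ran from -0.17 to 0.839 and REPIN1-AS1 from -0.81 to 0.571. DESeq2 turned no sign among the 177 genes in the text, ended 2 calls and added 1.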
